A study of Mus musculus with 13 samples.

Results

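Thymic eosinophils sorted from Rag-KO mice given a control antibody (Rag-KO + control) were compared with thymic eosinophils from wild-type (WT) mice across all genes. The comparison used 5 of the 13 libraries of the series, namely Rag-KO + control replicates 1 and 2 against WT thymus replicates 1, 2 and 3, and both directions were described, what was gained as well as what was lost. Of the 41743 genes of the table, 9763 reached 1 RPKM (reads per kilobase of transcript, scaled to the library total) in at least 2 of the 13 libraries and were tested. Rag-KO + control replicate 1 came from a Rag2-/- mouse line and replicate 2 from a Rag1-/- line, and both had received hamster IgG, the control antibody, 10 days before the sort. The WT libraries are wild type and carry no antibody label. Mice were adults on the C57BL/6N background per the methods of the study, and cells were sorted from digested thymus as CD11b+ Siglec-F+ cells. The other 8 libraries, eosinophils of WT spleen, WT lung and of the thymus of Rag2-/- mice given anti-CD3 antibody, entered the fit only through the estimate of the spread. Values of the 5 libraries are given in the order Rag2-/- and Rag1-/- for Rag-KO + control, then replicates 1, 2 and 3 for WT.

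Eosinophils are granulocytes that depend on IL-5 and carry cationic granule proteins, and those resident in tissues differ from organ to organ. Rag1 and Rag2 form the recombinase that rearranges antigen receptor genes, so that thymocytes of mice lacking either stop at the double-negative stage and neither double-positive nor single-positive thymocytes, nor mature T and B cells, are made. The thymic medulla, where eosinophils are found, is small in such mice because its epithelium needs signals from single-positive thymocytes. The comparison asks how the transcriptome of thymic eosinophils differs when these thymocytes are missing.

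Library totals, recovered from the RPKM values, were 5941441 and 6315086 reads for Rag-KO + control and 5435712, 5078766 and 6431540 reads for WT thymus. The targeted genes were low throughout. Rag1 was at 0.153 and 0.024 RPKM in Rag-KO + control against 3.29, 2.0 and 0.776 RPKM in WT, and Rag2 was at 0.0492 and 0.0925 RPKM in Rag-KO + control against 0.860, 0.288 and 0.409 RPKM in WT. Genes that define eosinophils were high in both groups. Siglecf, the sorted surface lectin, was at 381 and 415 RPKM in Rag-KO + control, against 354, 364 and 466 RPKM in WT. Ccr3, the eotaxin receptor, was at 608 and 625 RPKM in Rag-KO + control, against 528, 483 and 516 RPKM in WT. Of 17 tested genes of the eosinophil lineage list (Siglecf, Ccr3, Il5ra, Gata1 and others), 0 were called by limma at an adjusted p under 0.05, 0 passed an unadjusted p under 0.05 with the fold limit, and the median log2 fold change was 0.02.

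Rag-KO + control replicate 2, WT thymus replicate 3, WT spleen replicate 3 and WT lung replicate 3 deviated from their groups together across genes. The deviations of WT spleen replicate 3 correlated at 0.46 with Rag-KO + control replicate 2, at 0.574 with WT thymus replicate 3 and at 0.418 with WT lung replicate 3. The 2 Rag-KO + control libraries deviate from their mean by equal and opposite amounts, so which of the 2 departs cannot be told. No label gives a batch. The Rag1-/- genotype belongs to the library of this set, so that genotype and library set cannot be told apart within Rag-KO + control, and injection of IgG and loss of Rag cannot be told apart between Rag-KO + control and WT. Differences are therefore also given separately for the Rag2-/- library against the mean of WT replicates 1 and 2, and for the Rag1-/- library against WT replicate 3. These are single differences with no test.

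Of the 9763 genes tested, 49 were higher (0.502%) and 57 lower (0.584%) in Rag-KO + control than in WT thymic eosinophils, where a call required an adjusted p under 0.05 together with a log2 fold change over 1 in either direction. Together the 106 called genes were 1.09% of the genes tested. In each of the 106 the groups did not overlap, as was also the case for 25.0% of all genes tested. The median log2 fold change was 2.10 among the genes called higher and -1.95 among those called lower, against 0.00 over all genes tested. Within the library sets the medians were 2.19 and 2.46 for the genes called higher and -1.90 and -2.21 for those called lower. The counts depend on which libraries enter the fit. Without Rag-KO + control replicate 2, 12 genes were higher and 3 lower, and without replicate 1, 120 were higher and 49 lower, the lone library being assumed in both fits to vary like those of the other groups. Without WT thymus replicate 1 they were 24 and 15, without WT thymus replicate 2 22 and 19, and without WT spleen replicate 3, an organ library with 22.0% of its RPKM in mitochondrial genes, 118 and 116. With a term for the library set, 125 genes were higher and 105 lower, and all 49 and all 57 were among them. The set was found from these same data, so the kept calls are not independent support. Called without exception in the 13 fits that each left out 1 library were Retnla, Ccl9, Tppp3, Cfp, Ecm1, S1pr1, Naaladl1 and Adra2a of the genes called higher, and Itgae, Olfm4 and Grm6 of those called lower.

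Of the 3 largest gains, in Retnla, Tppp3 and Ccl9, Retnla and Ccl9 encode secreted proteins. Retnla, which encodes the resistin-like protein RELM-alpha, a hallmark of myeloid cells activated by IL-4 and IL-13, lies at chr16:48842551-48844461 (GRCm38, plus strand). It was at 2160 and 1966 RPKM in Rag-KO + control, against 17.2, 16.8 and 21.0 RPKM in WT. Both Rag-KO + control libraries were far above every WT thymus library, with a log2 fold change of 6.74 ± 0.38 (SE, adjusted p = 5.5e-06), and also above the means of WT spleen (93.0 RPKM) and WT lung (76.8 RPKM). Its neighbour Retnlg, which encodes a related resistin-like protein found in granulocytes, was at 2603 and 3199 RPKM in Rag-KO + control, against 433, 290 and 579 RPKM in WT. Its log2 fold change was 2.79 ± 0.37 (adjusted p = 0.00465), and both groups stayed far below WT spleen and WT lung, whose means were 17306 and 17699 RPKM. Ccl9, a CC chemokine that attracts cells through CCR1, was at 485 and 604 RPKM in Rag-KO + control, against 4.22, 4.26 and 20.3 RPKM in WT. The log2 fold change of Ccl9 was 6.02 ± 0.52 (adjusted p = 0.000396).

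The promoter windows of Retnla, Retnlg and Ccl9 are shown because Retnla and Ccl9 are among the 3 largest gains and Retnlg is the called neighbour of Retnla. They run from 250 bases before to 50 bases after the RefSeq start on GRCm38.p6 and are written 5′ to 3′ along the gene. Retnla covers chr16:48842359-48842658 and Retnlg chr16:48872358-48872657, both on the plus strand, and Ccl9 covers chr11:83578587-83578886 on the minus strand. Capitals mark matches, on either strand, to the STAT6-type pattern (TTC and GAA with any 4 bases between them) and the C/EBP-type pattern TTGCNNAA in the resistin-like genes, and to the AP-1 pattern TGANTCA in Ccl9.
Retnla: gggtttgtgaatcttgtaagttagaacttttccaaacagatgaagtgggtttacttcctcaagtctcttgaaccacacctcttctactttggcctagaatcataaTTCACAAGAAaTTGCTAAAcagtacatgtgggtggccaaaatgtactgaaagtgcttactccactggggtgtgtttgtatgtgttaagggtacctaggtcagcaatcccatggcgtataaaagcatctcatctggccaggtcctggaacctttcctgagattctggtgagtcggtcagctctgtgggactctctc
Retnlg: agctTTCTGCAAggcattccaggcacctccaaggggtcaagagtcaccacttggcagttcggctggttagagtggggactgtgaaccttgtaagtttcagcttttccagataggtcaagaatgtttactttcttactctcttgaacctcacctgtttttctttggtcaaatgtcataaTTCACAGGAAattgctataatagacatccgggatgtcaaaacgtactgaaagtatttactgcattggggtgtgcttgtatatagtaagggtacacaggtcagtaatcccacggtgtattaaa
Ccl9: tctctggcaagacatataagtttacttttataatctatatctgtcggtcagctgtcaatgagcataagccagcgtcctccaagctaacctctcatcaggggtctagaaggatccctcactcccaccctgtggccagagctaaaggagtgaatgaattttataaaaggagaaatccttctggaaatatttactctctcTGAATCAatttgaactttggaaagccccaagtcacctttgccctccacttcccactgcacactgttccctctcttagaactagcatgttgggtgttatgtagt
The STAT6-type match starts 145 bases before the RefSeq start of Retnla and 72 bases before that of Retnlg. Windows were matched for 37 of the 49 genes called higher, 48 of the 57 called lower and 7835 of the genes tested. The STAT6-type pattern was held by 8.11% of the windows of genes called higher, 2.08% of those called lower and 5.18% of all windows. The STAT6-type share of genes called higher came from 3 windows, those of Pros1, Retnla and Retnlg. For the C/EBP-type pattern the shares were 21.6%, 12.5% and 8.22%, and for the AP-1 pattern they were 16.2%, 4.17% and 4.72%. For the E-box pattern CACGTG they were 10.8%, 10.4% and 10.7%, and for the GATA pattern AGATAA 5.41%, 8.33% and 6.22%. A STAT-type pattern, TTC and GAA with any 3 bases between them, had 5.41%, 2.08% and 7.05%. The windows of the genes called higher that held AP-1 were those of Ccl9, Ecm1, F2r, Fgl2, Mndal and Pon3. The ETS pattern CCGGAAGT was in 9.8% of all windows and in 0 of the windows of called genes in either direction. A match is a description of these letters, and binding was not measured.

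**Figure D1:**
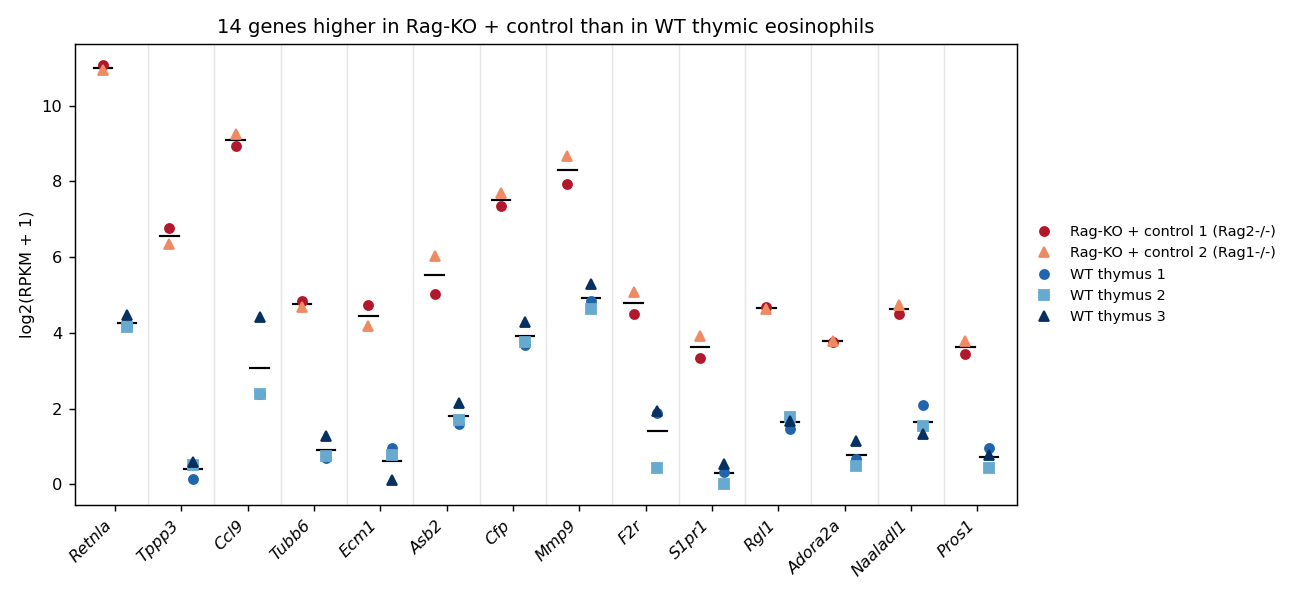
Level of 14 of the 15 genes with the largest gains among called genes with a mean of at least 10 RPKM in Rag-KO + control, as log2(RPKM + 1), with 1 point per library and the group mean as a bar, Rag-KO + control on the left of each gene and WT thymus on the right. In all 14 genes both Rag-KO + control libraries lie above the 3 WT libraries, and Retnla at 2160 and 1966 RPKM is the highest.

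Further gains were in a complement factor, a protease and a receptor of leukocyte traffic. Cfp, which encodes properdin, the stabiliser of the alternative complement convertase, was at 161 and 206 RPKM in Rag-KO + control, against 11.9, 12.5 and 18.6 RPKM in WT (log2 fold change 3.60 ± 0.36, adjusted p = 0.000707). Mmp9, a gelatinase stored in granulocytes, was at 245 and 407 RPKM in Rag-KO + control, against 27.4, 23.9 and 37.8 RPKM in WT (3.39 ± 0.49, adjusted p = 0.00593). These levels in Rag-KO + control were above the organ means for Cfp (44.8 RPKM in WT spleen and 55.0 RPKM in WT lung) and between them for Mmp9 (281 and 394 RPKM). S1pr1, the sphingosine-1-phosphate receptor that guides leukocytes out of tissues, was at 9.12 and 14.2 RPKM in Rag-KO + control and at 0.242, 0 and 0.459 RPKM in WT (3.35 ± 0.35, adjusted p = 0.000981). For S1pr1 the lower Rag-KO + control library was over every WT thymus library.

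The remaining genes of the largest gains had log2 fold changes from 2.89 to 6.15. Tppp3, which encodes a tubulin-binding protein, was at 108 and 81.1 RPKM in Rag-KO + control, against 0.0996, 0.426 and 0.505 RPKM in WT (6.15 ± 0.66), and Tubb6, a beta-tubulin, was at 27.6 and 24.7 RPKM in Rag-KO + control, against 0.628, 0.672 and 1.42 RPKM in WT (3.85 ± 0.58). Ecm1, a secreted matrix glycoprotein, was at 25.6 and 17.1 RPKM in Rag-KO + control, against 0.941, 0.705 and 0.0796 RPKM in WT (3.84 ± 0.38). Asb2, a substrate adaptor of a ubiquitin ligase, was at 31.7 and 64.0 RPKM in Rag-KO + control, against 2.04, 2.25 and 3.40 RPKM in WT (3.71 ± 0.68). For Asb2 the gap between its Rag-KO + control libraries was wider than for the tubulin genes. Receptor genes of this group were F2r, the thrombin receptor (21.7 and 32.7 RPKM in Rag-KO + control, against 2.70, 0.354 and 2.80 RPKM in WT), and Adora2a, an adenosine receptor (12.6 and 12.8 RPKM in Rag-KO + control, against 0.601, 0.386 and 1.22 RPKM in WT). Rgl1, an activator of Ral GTPases, and Naaladl1, a peptidase-like protein, both rose, by 3.01 ± 0.45 and 2.97 ± 0.34 on the log2 scale. Adra2a, the alpha-2A adrenergic receptor, and Slc6a4, the serotonin transporter, were named after their values were seen, since their means stay under 10 RPKM. Adra2a was at 7.04 and 10.5 RPKM in Rag-KO + control, against 0.533, 0.0815 and 0.193 RPKM in WT, and Slc6a4 at 6.25 and 10.7 RPKM in Rag-KO + control, against 0, 0 and 0.272 RPKM in WT. The only gene called higher that was at 0 in all WT thymus libraries was 9130008F23Rik, at 3.43 and 6.08 RPKM in Rag-KO + control. At a value of 0, as many as 3 reads remain possible by counting error.

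By function, the gained genes of the chemokine ligand list were Ccl9 and Ccl8. Of 17 tested ligands 2 rose, 0 fell and 12 had a log2 fold change above 0 (50.2% of all genes did), with a median of 1.76 against 0.00 for all genes. Ccl8, another CC chemokine, was at 3.95 and 6.51 RPKM in Rag-KO + control, against 1.08, 0 and 0.609 RPKM in WT (2.03 ± 0.34, adjusted p = 0.0147). Ccl6, the most abundant ligand of the list, was at 6909 and 10624 RPKM in Rag-KO + control, against 2349, 2544 and 4160 RPKM in WT, and did not pass the test (1.55, adjusted p = 0.0672). Its groups did not overlap, as was the case for 25.0% of all genes tested.

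Of the 10 tested genes of alternatively activated myeloid cells, Retnla, Retnlg and Cd200r1 rose and 0 fell. Cd200r1, an inhibitory receptor for CD200, was at 4.52 and 12.1 RPKM in Rag-KO + control, against 1.37, 1.06 and 0.882 RPKM in WT (2.02 ± 0.33, adjusted p = 0.0144). The other members were not called, but with the library-set term Arg2 was called lower (-2.91, adjusted p = 0.0407). Arg1 was at 0 and 3.32 RPKM in Rag-KO + control and at 0 in the 3 WT libraries, and Alox15, an arachidonate lipoxygenase at high levels in all 5 libraries, had a log2 fold change of -0.29 (adjusted p = 1).

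In the list for uptake of dying cells, Pros1 and Anxa1 rose and Itgb5 fell among 15 tested genes. Pros1, which encodes protein S, the bridge between phosphatidylserine and TAM receptors, was at 9.78 and 12.9 RPKM in Rag-KO + control, against 0.947, 0.358 and 0.706 RPKM in WT (2.89 ± 0.46, adjusted p = 0.0105). Anxa1, a phosphatidylserine-binding annexin, was at 58.7 and 85.2 RPKM in Rag-KO + control, against 8.75, 12.6 and 28.8 RPKM in WT (2.18 ± 0.44, adjusted p = 0.0367).

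Of 14 tested complement, serpin and plasminogen genes, Cfp and Serpinb1a rose and C5ar2 fell. With the library-set term F10 (1.52, adjusted p = 0.037) and F13a1 (1.71, adjusted p = 0.0425) were also called, both higher. Serpinb1a, an inhibitor of neutrophil elastase, was at 43.7 and 62.1 RPKM in Rag-KO + control, against 19.7, 16.5 and 20.8 RPKM in WT (1.42 ± 0.26, adjusted p = 0.0221). C5ar2, a receptor for C5a, was at 9.97 and 7.29 RPKM in Rag-KO + control, against 22.7, 26.9 and 32.5 RPKM in WT (-1.56 ± 0.31, adjusted p = 0.031).

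The 3 largest losses, in Car4, Cd34 and Itgb5, were in surface proteins. Car4, a membrane-anchored carbonic anhydrase, was at 0.877 and 0.619 RPKM in Rag-KO + control, against 79.2, 31.3 and 27.9 RPKM in WT (log2 fold change -4.60 ± 0.77, adjusted p = 0.0147). Cd34, a sialomucin of progenitors that is also found on eosinophils, lies at chr1:194938819-194961279 on the plus strand. It was at 29.9 and 7.16 RPKM in Rag-KO + control, against 199, 188 and 250 RPKM in WT (-3.74 ± 0.65, adjusted p = 0.0172). The Rag1-/- library was the lower for Cd34, and the Rag-KO + control mean of 18.5 RPKM was above the means of WT spleen (10.8 RPKM) and WT lung (4.21 RPKM).

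Among integrin chains, 16 were tested, 2 fell and 0 rose. With the library-set term Itga2 was also called, higher by 1.15 (adjusted p = 0.0389). Itgae, the alpha chain CD103 that binds E-cadherin of epithelium (chr11:73090583-73147446, plus strand), was at 0.438 and 0 RPKM in Rag-KO + control, against 15.5, 12.4 and 5.86 RPKM in WT (-3.26 ± 0.36, adjusted p = 0.00127). Itgb5, the partner of the alpha-v chain, was at 2.23 and 1.49 RPKM in Rag-KO + control, against 32.7, 31.1 and 20.2 RPKM in WT (-3.32 ± 0.52, adjusted p = 0.0103). Itgae is otherwise known in mice from intraepithelial lymphocytes, dendritic cells and some thymocytes, and in WT spleen and WT lung eosinophils its means were 0.0479 and 0 RPKM. Itgax, the chain CD11c, was at 47.8 and 9.61 RPKM in Rag-KO + control, against 259, 220 and 206 RPKM in WT, a log2 fold change of -3.32 that did not pass the test (adjusted p = 0.161). Its groups did not overlap, as was the case for 25.0% of all genes tested. With the library-set term Itgax was not called either (adjusted p = 0.0641). It passed in the fit without WT spleen replicate 3 (adjusted p = 0.00616), whereas without Rag-KO + control replicate 2 its adjusted p was 1. Itgal, the alpha chain of LFA-1, was at 93.5 and 41.3 RPKM in Rag-KO + control, against 205, 209 and 111 RPKM in WT, with no overlap and a log2 fold change of -1.42 that did not pass the test (adjusted p = 0.783). Itgb3 had a log2 fold change of 0.66 (adjusted p = 0.622), and those of Itgam, Itgb2, Itgb7 and Itga4 were 0.03, 0.26, 0.89 and -0.40, with adjusted p-values of 0.923 to 1.

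**Figure D2:**
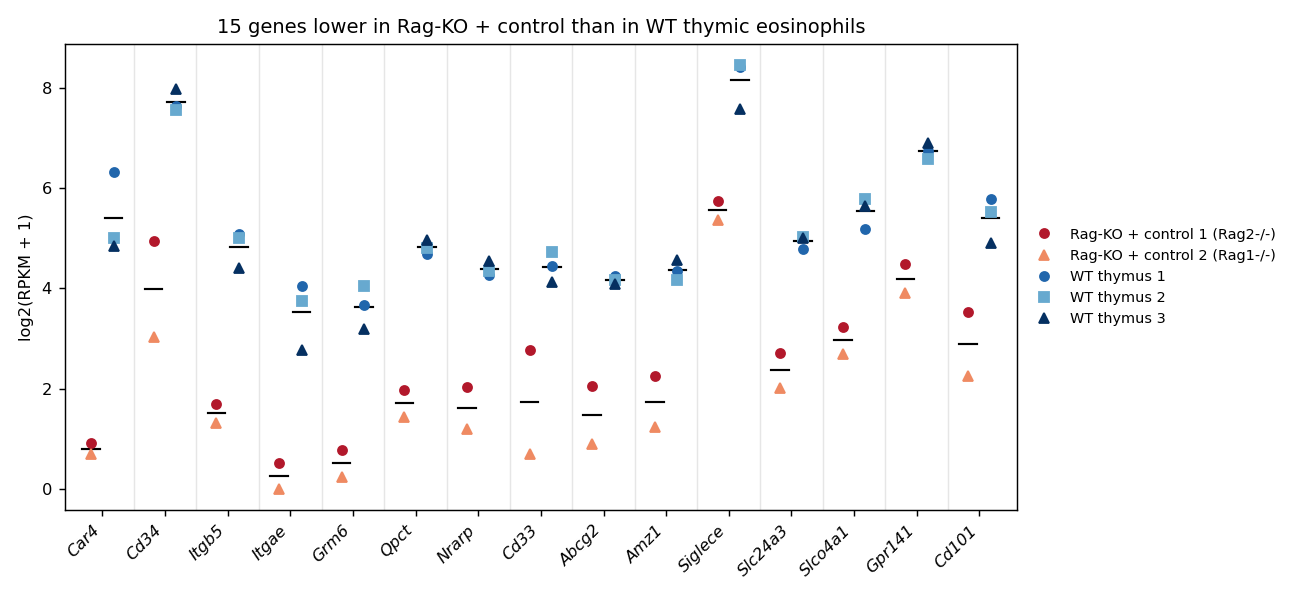
Level of the 15 genes with the largest losses among called genes with a mean of at least 10 RPKM in WT thymus, as log2(RPKM + 1), with 1 point per library and the group mean as a bar, Rag-KO + control on the left of each gene and WT thymus on the right. In all 15 genes both Rag-KO + control libraries lie below the 3 WT libraries.

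Siglece and Cd33, receptors of the Siglec family, also fell. Of 20 tested Fc receptors, Siglecs and paired inhibitory receptors, these were the only calls and 0 rose. With the library-set term Fcgr4 (2.69, adjusted p = 0.0253) and Siglecg (1.45, adjusted p = 0.0117) were also called, both higher. Siglece, which binds sialic acid and carries an inhibitory motif, was at 52.7 and 40.2 RPKM in Rag-KO + control, against 342, 349 and 189 RPKM in WT (-2.59 ± 0.43, adjusted p = 0.0146). Cd33 was at 5.86 and 0.625 RPKM in Rag-KO + control, against 20.7, 25.6 and 16.5 RPKM in WT (-2.70 ± 0.50, adjusted p = 0.0223). For Siglece the spread within WT was wider than in Rag-KO + control, and for Cd33 the Rag1-/- library was the lowest. Siglecf of the same family had a log2 fold change of 0.02.

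Of the genes of TGF-beta signalling, the type I receptor and a feedback inhibitor fell. Tgfbr1 was at 28.6 and 9.38 RPKM in Rag-KO + control, against 96.8, 88.4 and 67.6 RPKM in WT (-2.27 ± 0.41, adjusted p = 0.0195). Smad7, an inhibitor of this pathway that TGF-beta itself induces, was at 3.65 and 1.63 RPKM in Rag-KO + control, against 9.62, 10.9 and 9.37 RPKM in WT (-1.65 ± 0.31, adjusted p = 0.0255). These were the 2 of 13 tested genes of the list that fell, 0 rose, and the list median was -0.05. Tgfbr2, the type II receptor, was at 34.0 and 36.7 RPKM in Rag-KO + control, against 35.2, 37.7 and 36.5 RPKM in WT, and had a log2 fold change of -0.05.

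Other losses were single members of their lists or stand outside them. Cxcr2, the chemokine receptor for CXCL ligands, was at 4.58 and 2.49 RPKM in Rag-KO + control, against 28.7, 19.3 and 15.4 RPKM in WT (-2.28 ± 0.39, adjusted p = 0.0147), the only call among 7 tested chemokine receptors. With the library-set term Ccr2 was also called, higher by 2.20 (adjusted p = 0.0264). Slc40a1, the iron exporter ferroportin, was at 36.2 and 31.0 RPKM in Rag-KO + control, against 113, 107 and 96.0 RPKM in WT (-1.62 ± 0.31, adjusted p = 0.0255), the only call among 13 tested iron and heme genes. Its level in Rag-KO + control was also below the means of WT spleen (146 RPKM) and WT lung (81.9 RPKM). Among the largest losses were 3 transporters, Abcg2, an efflux pump, Slc24a3, a sodium, calcium and potassium exchanger, and Slco4a1, an organic anion transporter, which fell by 2.69 ± 0.38, 2.58 ± 0.45 and 2.57 ± 0.36 on the log2 scale. Qpct, glutaminyl cyclase, was at 2.94 and 1.69 RPKM in Rag-KO + control, against 24.8, 26.9 and 30.2 RPKM in WT (-3.11 ± 0.45). Grm6, a metabotropic glutamate receptor known from the retina, was at 0.715 and 0.177 RPKM in Rag-KO + control, against 11.7, 15.6 and 8.13 RPKM in WT (-3.13 ± 0.36), and Nrarp, a target and inhibitor of Notch signalling, was at 3.06 and 1.29 RPKM in Rag-KO + control, against 18.1, 19.3 and 22.3 RPKM in WT (-2.77 ± 0.42). The other 3 of the largest losses, Amz1, Gpr141 and Cd101, had log2 fold changes of -2.62, -2.55 and -2.50. Gpc3 and Zfyve28 were at 0 RPKM in both Rag-KO + control libraries, against 2.80, 1.02 and 2.54 RPKM for Gpc3 in WT and 1.83, 1.29 and 3.78 RPKM for Zfyve28 in WT.

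Further genes that the study names for thymic eosinophils did not pass the test and went in both directions. Prg2 (0.15) and Epx (3.90), given below with the granule genes, had log2 fold changes above 0, as had 5 of the 13 tested genes that the study names. Those of Il1rn, Cxcr4 and Bcl2a1d were under 0. Il1rn, the interleukin-1 receptor antagonist, was at 435 and 169 RPKM in Rag-KO + control, against 996, 1053 and 1658 RPKM in WT, with a log2 fold change of -2.15 (adjusted p = 0.153). Cxcr4, the receptor for CXCL12, was at 174 and 27.9 RPKM in Rag-KO + control, against 230, 262 and 232 RPKM in WT, with a log2 fold change of -1.77 (adjusted p = 0.273). In both, the Rag1-/- library was the lower, with single differences of -3.29 for Il1rn and -3.01 for Cxcr4, whereas the Rag2-/- library differed by -1.23 and -0.49. Bcl2a1d, an anti-apoptotic Bcl-2 relative, was at 106 and 61.5 RPKM in Rag-KO + control, against 77.2, 108 and 251 RPKM in WT, and its groups overlapped (-0.66, adjusted p = 1). Of the 13 tested genes that the study names for these libraries, Cd34 was the only call. The study chose most of these genes on WT thymus libraries that are used here, so their direction is not independent evidence.

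Set beside the eosinophils of other organs, the WT thymus mean of a gained gene mostly lay under both organ means and that of a lost gene over both. For 40 of the 49 genes called higher (81.6%) the WT thymus mean was below the means of WT spleen and WT lung, against 21.6% of all genes tested, and for 55 of the 57 genes called lower (96.5%) it was above both, against 54.2% of all genes. The Rag-KO + control mean was above both organ means for 40 of the 49 genes called higher (81.6%, against 53.7% of all genes). In 31 of the 49 (2.90% of all genes), among them Retnla, Ccl9, Cfp and S1pr1, both Rag-KO + control libraries exceeded every other library of the series. All these shares use the thymic libraries that also chose the genes and are a description, with nothing read from them. Among the 7 genes that remained under both organ means were Retnlg, Anxa1, Tagln2, Pdlim1, Serpinb1a and Pbld1. Of the genes called lower, the Rag-KO + control mean was below both organ means in 20, between them in 18 and above both in 19, Cd34 and Itgae among the last.

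**Figure D3:**
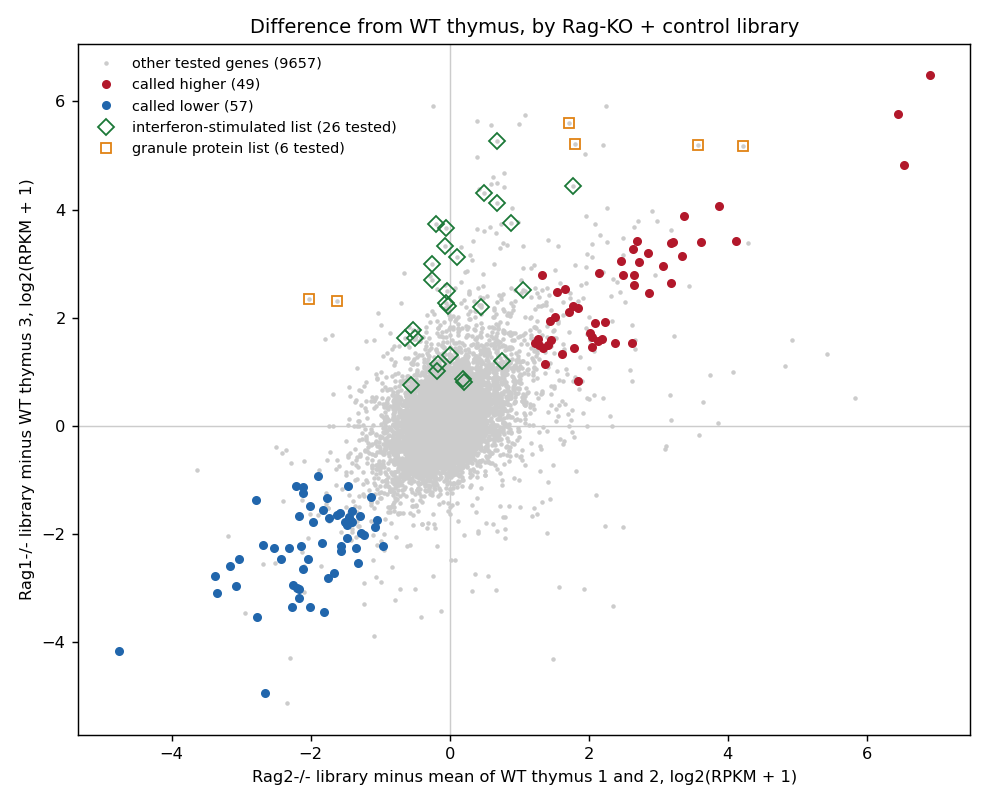
Difference from WT thymus of each tested gene as log2(RPKM + 1), for the Rag2-/- library against the mean of WT thymus replicates 1 and 2 (x axis) and for the Rag1-/- library against WT thymus replicate 3 (y axis). The 49 and 57 called genes lie along the diagonal, a place that their choice favours, since a call is more easily reached where both Rag-KO + control libraries are alike. Most of the 26 interferon-stimulated genes lie above the x axis near an x value of 0.

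Some gene groups differed between the Rag1-/- and Rag2-/- libraries of Rag-KO + control. Between the Rag-KO + control libraries, 125 genes were over 2 higher on the log2 scale in the Rag1-/- library and 51 were over 2 lower. Of 26 tested interferon-stimulated genes, 0 were called by limma in either direction, 10 passed an unadjusted p under 0.05 with the fold limit, and 26 had a log2 fold change above 0, as had 50.2% of all genes. Over all 9763 genes tested, 305 higher and 193 lower passed that unadjusted limit. The list median was 1.19, made up of -0.03 for the Rag2-/- library and 2.39 for the Rag1-/- library. Irf7, a regulator of interferon responses, was at 27.7 and 220 RPKM in Rag-KO + control, against 32.3, 26.5 and 21.1 RPKM in WT (1.55, adjusted p = 0.514). The difference of the Rag1-/- library from WT replicate 3 exceeded 1 on the log2 scale in 23 of the 26, against 8.15% of all genes, and that of the Rag2-/- library in 2 of the 26, against 3.32% of all genes.

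Granule protein genes had their highest levels in the Rag1-/- library and differed among themselves in the Rag2-/- library. Epx, eosinophil peroxidase, was at 7.64 and 340 RPKM in Rag-KO + control, against 1.09, 2.27 and 6.01 RPKM in WT (3.90, adjusted p = 0.16). Prg2, the major basic protein, was at 188 and 3648 RPKM in Rag-KO + control, against 925, 631 and 716 RPKM in WT. The Rag2-/- library was below and the Rag1-/- library above the WT libraries for Prg2, with single differences of -2.02 and 2.35. Of 6 tested granule genes 0 were called by limma, 4 passed an unadjusted p under 0.05 with the fold limit, and in 4 the groups did not overlap. Over all genes tested the groups did not overlap in 25.0%. The Rag1-/- library exceeded WT replicate 3 by over 1 on the log2 scale in 6 of the 6, against 8.15% of all genes. The Rag2-/- library exceeded the mean of WT replicates 1 and 2 by over 1 in 4 of the 6, against 3.32%. The other genes, Prg2 and Ear6, were lower in the Rag2-/- library, with differences of -2.02 and -1.63. The median differences were 5.18 for the Rag1-/- library and 1.76 for the Rag2-/- library. Ear1 and Ear2, near-identical ribonuclease genes whose reads may not be told apart, were at 34.6 and 662 RPKM and at 37.5 and 532 RPKM in Rag-KO + control, against at most 17.5 and 13.6 RPKM in WT. Both Rag-KO + control libraries were above all 3 WT libraries for Ear1 and Ear2, with single differences of the Rag2-/- library of 4.22 for Ear1 and 3.57 for Ear2. With the library-set term both were called higher, by 4.87 for Ear1 (adjusted p = 0.00506) and 4.32 for Ear2 (adjusted p = 0.000684). Cell cycle genes were higher in the Rag1-/- library too, with a median difference of 1.45 over the 26 tested, against 0.11 for the Rag2-/- library. Of these 26, 0 were called and 5 passed an unadjusted p under 0.05 with the fold limit. With the library-set term Oas1g was the only call among the interferon-stimulated genes (2.96, adjusted p = 0.0151), and 0 of the cell cycle genes were called. The medians of the interferon and cell cycle genes were raised in 1 library, and genotype, library set and animal cannot be told apart there.

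Markers of other cells that the sort could hold differed between the groups. In bulk libraries, fewer cells of a type and less RNA per cell cannot be told apart. Markers of double-positive thymocytes summed to 17.9 and 8.85 RPKM over 13 genes in Rag-KO + control, against 73.4, 54.3 and 30.0 RPKM in WT, and T lineage markers summed to 6.28 and 3.13 RPKM over 18 genes in Rag-KO + control, against 48.6, 29.3 and 10.3 RPKM in WT. Cd8b1, a CD8 chain, and Lck, a kinase that binds CD4 and CD8, were among the called losses with a mean of 0.0567 and 0.50 RPKM in Rag-KO + control, against 5.37 and 5.01 RPKM in WT. Each of the 8 tested double-positive markers had a log2 fold change under 0, and 1 was called. Of the 8 tested T lineage markers 0 had one above 0, and 1 was called. An unadjusted p under 0.05 with the fold limit was found for 6 and 5 of these genes, all lower. With the library-set term Rag1 (-1.33, adjusted p = 0.0286), Lat (-1.55, adjusted p = 0.0254) and Tcf7 (-2.05, adjusted p = 0.0106) were also called, all lower. The part of thymocyte RNA in the other losses was not tested. Itgae, at 15.5, 12.4 and 5.86 RPKM, and Car4, at 79.2, 31.3 and 27.9 RPKM, had the same order over the WT libraries as these sums. Cd34, at 199, 188 and 250 RPKM, had another order. The highest single thymocyte marker of the list, Cd1d1, was at 32.0, 29.2 and 16.1 RPKM in WT. An order over 3 libraries and a level beside 1 marker do not give the source of an RNA, which was not tested.

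Neutrophil markers summed to 1284 and 5956 RPKM over 16 genes in Rag-KO + control, against 516, 623 and 2548 RPKM in WT. Elane, the elastase of neutrophil precursors, was at 18.6 and 1002 RPKM in Rag-KO + control, against 0, 0 and 94.8 RPKM in WT. Of the 15 tested neutrophil markers Mmp9 rose and Cxcr2 fell, and 12 had a log2 fold change above 0, as had 50.2% of all genes. The list median was 2.57, against 0.00 for all genes, with 2.62 for the Rag2-/- library and 0.51 for the Rag1-/- library. Macrophage and monocyte markers summed to 729 and 3493 RPKM over 18 genes in Rag-KO + control, against 345, 299 and 539 RPKM in WT. Most of the Rag1-/- sum came from Ly6c2, at 79.7 and 2440 RPKM in Rag-KO + control, against 29.0, 8.62 and 39.2 RPKM in WT. Of the 18 genes 16 were above 0 in at least 1 of the 5 libraries, and Marco and Cd5l were at 0 in all 5. Dendritic cell markers summed to 182 and 448 RPKM over 14 genes in Rag-KO + control, against 108, 132 and 136 RPKM in WT. The part of these cells in the other gains was not tested. Of 12 tested macrophage and monocyte markers Slc40a1 fell and 0 rose, and 9 had a log2 fold change above 0, with a median of 0.86. With the library-set term Ly6c2 (3.82, adjusted p = 0.0157) and Lyz2 (3.34, adjusted p = 0.0467) were called higher and Slc40a1 lower. B cell markers were low in every library, at 4.85 and 6.06 RPKM in Rag-KO + control, against 6.29, 8.69 and 9.61 RPKM in WT.

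**Figure D4:**
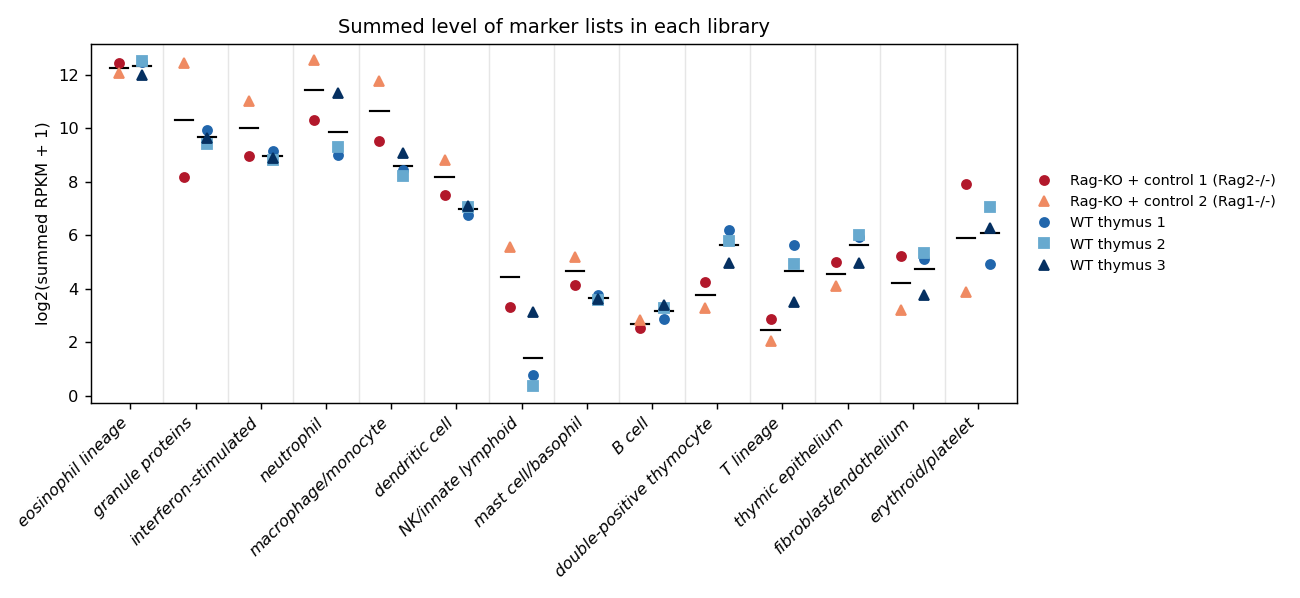
Summed RPKM of each marker list as log2(sum + 1), with 1 point per library and the group mean as a bar, Rag-KO + control on the left of each list and WT thymus on the right. The eosinophil list is level between groups, the granule, interferon, neutrophil and monocyte lists are highest in the Rag1-/- library, and the double-positive thymocyte and T lineage lists are higher in all 3 WT libraries.

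Several groups of genes held no call by limma in either direction. These were the 22 tested immediate early genes, the 15 heat shock genes, the 15 NF-kB and feedback genes, the 18 glycolysis genes, the 14 Bcl-2 family genes and the 14 LXR target genes. The smallest adjusted p-values in these lists were 0.313, 0.55, 0.945, 0.0745, 0.88 and 0.0603. Unadjusted p-values under 0.05 with the fold limit were found for 3, 1, 0, 3, 0 and 3 of their genes. Over all 9763 genes tested they were found for 305 higher and 193 lower. Also without a call were the 12 tested genes of the interleukin-1 family, the 20 STAT and SOCS genes, the 13 eicosanoid genes and the 17 MHC and co-stimulatory genes, of which 4, 3, 0 and 4 passed an unadjusted p under 0.05 with the fold limit. Markers of double-negative thymocytes, NK and innate lymphoid cells, mast cells and basophils, epithelium, stroma, and erythroid cells and platelets held no call either, and such unadjusted p-values were found for 1, 1, 0, 2, 0 and 0 of their genes. The epithelial markers summed to 30.7 and 16.2 RPKM over 12 genes in Rag-KO + control, against 60.1, 63.0 and 30.3 RPKM in WT. The library-set term gave 1 call each in 6 of the lists named in these sentences. They were Slc2a3, a glucose transporter of the glycolysis list (1.62, adjusted p = 0.00561), Il1rl1 of the interleukin-1 family (1.08, adjusted p = 0.0184), Pim2 of the STAT and SOCS list (1.27, adjusted p = 0.0205) and H2-DMa of the MHC list (1.28, adjusted p = 0.0248), all higher, and Scd2 of the LXR list (-1.76, adjusted p = 0.031) and Hes1 of the double-negative thymocyte markers (-1.51, adjusted p = 0.0244), both lower. Fth1, the ferritin heavy chain, was at 1664 and 1391 RPKM in Rag-KO + control, against 1748, 1841 and 2236 RPKM in WT (-0.34, adjusted p = 1). Il4 was at 33.6 and 31.7 RPKM in Rag-KO + control, against 31.3, 55.7 and 39.1 RPKM in WT, with a log2 fold change of -0.32, and Il5 was at 0 in all 5 libraries.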

How the data were processed

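The authors sorted eosinophils, made cDNA with a SMART-seq kit and sequenced the libraries on an Ion Proton. They used CLC Genomics Workbench, and the submitters' notes name mm10. The deposited values are RPKM of 41743 genes in 13 libraries. Mapping and counting settings are not given in the sources used here, nor is a scaling between libraries beyond the total. The RPKM of 5888 genes gave whole reads in every library within 0.001, from which totals of 4765122 to 6431540 reads were recovered. No unique molecular identifiers were used, so limits from 0 cover counting error only.

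The fit was run in R 4.3.3 with limma 3.58.1 on the log2 scale, after adding 1 to each RPKM (group means of all 13 libraries in 5 groups, intensity trend, 8 residual degrees of freedom). It took 9763 genes that reached 1 RPKM in 2 or more libraries. Fold changes on this scale understate those of low genes. A call required a Benjamini-Hochberg adjusted p under 0.05 over all genes and a change beyond 1 on the log2 scale. The fit was tested on simulated data in which libraries varied independently. Libraries that deviate together were not simulated, so that test does not bear on their effect on the counts. The labels do not say whether replicates are separate animals, so p-values measure the spread between these samples. For a single value, 2 libraries against 3 cannot reach an exact permutation p under 0.1, so none was run. The 4 libraries that deviated together were found from the data, and both anti-CD3 libraries were assumed to lie outside that set.

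The members of the 38 gene lists, the rule for named genes and the tests were chosen with earlier results of these data known. The rule names the 15 largest changes per direction among called genes with no overlap between the groups and a mean of 10 RPKM or more in the higher group, the genes the study names, up to 3 called members of each list or 2 where none was called, and up to 5 genes per direction at 0 in the lower group. Of these 101 genes, those that bear on the text are given, and the values of some are not reported here. Gene positions are from GENCODE vM21 on GRCm38 and promoter windows from RefSeq on GRCm38.p6.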

Additional observations from a re-analysis of the deposited data

How the results depend on the processing

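The counts of 49 higher and 57 lower genes rest on few libraries. Leaving out 1 library gave 12 to 120 higher and 3 to 116 lower. Other fits gave 113 and 94 with the 7 thymic libraries, 106 and 113 with the replicate block, 125 and 105 with the library-set term (232 and 168 when WT spleen replicate 3 was also left out, chosen after seeing the data), and 218 and 191 without that set. The count of higher genes alone moved by over 1.5 times with a pseudocount of 5 (32) and with an RPKM of at least 5 (31). With no adjustment 305 and 193 passed, and with an unpaired Student test on RPKM, also unadjusted, 205 and 176. The study gives no test for this comparison. The cause of these changes was not tested. Of 47 called genes with a fold change in the text, 0 changed sign. The call was lost in 45 of their 652 values over 14 alternatives, most often with the 5 libraries alone (13 genes) and with no filter (9 genes). These alternatives do not include the fits that left out 1 library. With the 5 libraries alone, 30 of the 49 and 30 of the 57 calls were kept. Without WT thymus replicate 1, 24 and 15 were kept, and the calls of Slc3a2, Lck, Anxa1, C5ar2 and Prdm1 were among those lost.

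Some uncalled fold changes changed sign, among them those of Irf7 (1.55) and Bcl2a1d (-0.66). With the replicate block Bcl2a1d had 0.050, Itgam -0.41, Itgb2 -0.055 and Siglecf -0.14, without the library set, which leaves 1 Rag-KO + control library assumed to vary like the other groups, Bcl2a1d 0.21, Irf7 -0.074, Itgam -0.090 and Prg2 -2.02 (adjusted p = 0.00172), with the library-set term Prg2 -0.081 and Tgfbr2 0.037, with that term and no WT spleen replicate 3 Prg2 -0.017 and Siglecf -0.0073, with upper-quartile scaling Itgam -0.024 and Siglecf -0.027, and with quantile normalization Itgam -0.047 and Siglecf -0.070. Leaving out 1 library gave -0.75 to 0.16 for Alox15, -0.87 to 0.063 for Itga4, -0.35 to 0.29 for Itgam, -1.99 to 2.29 for Prg2, -0.051 to 0.15 for Siglecf and -0.10 to 0.0087 for Tgfbr2.

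The groups share replicate numbers 1 and 2, and no label pairs them. Deviations of same-numbered libraries correlated at 0.361 for number 1 and -0.488 for number 2. The deviations of the 2 Rag-KO + control libraries are equal and opposite, so these values cannot decide whether the numbers pair the samples. The replicate block kept all 49 and all 57 calls. Many called genes are low: 25 of the genes higher and 23 of those lower had a mean under 1 RPKM in the lower group.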

Other observations

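Some further called genes fall outside the lists above and were picked after their values were seen. Slc7a11 and Slc3a2, the chains of the cystine and glutamate exchanger, both fell, at 8.15 and 5.21 RPKM in Rag-KO + control, against 19.1, 16.7 and 19.8 RPKM in WT for Slc7a11 (log2 fold change -1.37 ± 0.26, adjusted p = 0.025), and at 57.7 and 43.2 RPKM in Rag-KO + control, against 125, 121 and 160 RPKM in WT for Slc3a2 (-1.41 ± 0.30, adjusted p = 0.0465). Among nuclear regulators, Lmo4, a LIM-domain cofactor, was at 54.2 and 55.7 RPKM in Rag-KO + control, against 141, 157 and 181 RPKM in WT (-1.52 ± 0.23, adjusted p = 0.00854). Prdm1, which encodes the repressor Blimp-1, was at 0.251 and 0.147 RPKM in Rag-KO + control, against 2.47, 2.20 and 2.40 RPKM in WT (-1.49 ± 0.31, adjusted p = 0.0444). Cdkn2b, a cell cycle inhibitor, was at 2.78 and 1.71 RPKM in Rag-KO + control, against 9.53, 10.9 and 11.6 RPKM in WT (-1.86 ± 0.35, adjusted p = 0.0225). Spp1, which encodes osteopontin, was at 11.0 and 9.80 RPKM in Rag-KO + control, against 1.0, 0.836 and 0.566 RPKM in WT (2.67 ± 0.49, adjusted p = 0.0221), and Aldh1a2, a retinoic acid synthesis enzyme, was at 1.41 and 2.24 RPKM in Rag-KO + control, against 0, 0 and 0.0687 RPKM in WT (1.45 ± 0.26, adjusted p = 0.018).

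The fit with a term for the library set called further genes. Those higher in Rag-KO + control included Ccl6 (log2 fold change 1.46 ± 0.21, adjusted p = 0.00425), Mpeg1, a pore-forming protein of myeloid cells (2.18 ± 0.32, adjusted p = 0.00425), and Il1rl1, the IL-33 receptor (1.08 ± 0.21, adjusted p = 0.0184). Those lower included P2ry13, a receptor for ADP (-2.49 ± 0.33, adjusted p = 0.00262), and Il13ra1, a chain of the IL-13 receptor (-2.37 ± 0.47, adjusted p = 0.0217). Without the term, Ccl6 and Il1rl1 both had an adjusted p of 0.0672.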
